A study of Drosophila melanogaster with 2 samples.

Results

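Peritrophin-15 cells were the barcodes of the adult Drosophila midgut in which Peritrophin-15a and Peritrophin-15b made up an unusually large part of the RNA. They were chosen by a rule on measured counts. A barcode had to hold at least 200 genes and at most 25% of its unique molecular identifiers (UMIs, each standing for 1 captured RNA molecule) on mitochondrial genes. It had to hold under 3 UMIs of the progenitor genes esg, N and Dl together, under 3 UMIs of the enteroendocrine gene pros, and at least 3 UMIs of Peritrophin-15a and Peritrophin-15b. The share of those 2 genes also had to reach 3 times their share pooled over all barcodes within the gene and mitochondrial limits, that is 0.619% against a pooled 0.206%. The rule found 287 cells among 8399 such barcodes and 10564 barcodes in all, with 85 cells in esgts/D30A and 202 cells in esgts/+. The rule was drawn up for cells of a cardia type, a label that their other genes did not bear out, and they are called Peritrophin-15 cells here.

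The gut of flies is lined by the peritrophic matrix, a sleeve of chitin and chitin-binding proteins that separates food and microbes from the epithelium. Peritrophins are small secreted proteins whose domains bind chitin and pack the matrix. In adult flies much of the matrix is laid down where the foregut meets the midgut, in an organ called the cardia or proventriculus, where mucins, the mucin glycosyltransferase pgant4 and chitin synthase are also made, while the enterocytes of the midgut behind it secrete digestive enzymes.

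Each genotype was measured in 1 single-cell library, made from 27 dissected midguts of virgin females and dissociated with elastase at 1 mg/ml. The esgts/D30A flies carried 1 copy of the transgene UAS-ImdD30A, and the esgts/+ flies carried none. Both were w and carried 1 copy each of esgGal4, the driver active in gut progenitor cells, tubGAL80[ts], its temperature-sensitive repressor, and UASGFP, and both were kept at 18 °C until eclosion and then at 29 °C for 10 days. ImdD30A blocks immune deficiency (IMD) signalling, and live cells were collected on a density gradient before droplet capture. Guts were pooled and each genotype is 1 library, so no test between genotypes was possible, and all intervals are 95% intervals that cover counting error only.

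The libraries held 53275921 UMIs in esgts/D30A and 30383272 UMIs in esgts/+. The mitochondrial limit removed 31.9% of the esgts/D30A barcodes and 3.39% of the esgts/+ barcodes. Kept barcodes had a median of 1661 UMIs in esgts/D30A and 1224 UMIs in esgts/+, and Peritrophin-15 cells had a median of 1269 UMIs and 444 genes in esgts/D30A and 1006 UMIs and 377 genes in esgts/+. The cells spanned 697 to 159721 UMIs in esgts/D30A and 535 to 300036 UMIs in esgts/+, so most of the summed RNA came from a few deep cells.

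The libraries shared 132 barcode sequences, and 15 of these met the rule in at least 1 library and 10 met it in both. In each of the 15 the barcode was 142 to 176 times deeper in one library than in the other. For example, a barcode with 8368 Peritrophin-15 UMIs among 159721 UMIs in esgts/D30A had 29 among 917 UMIs in esgts/+. The barcode with 19155 among 300036 UMIs in esgts/+ had 87 among 2118 UMIs in esgts/D30A. The shared barcodes that met the rule held 23172 of the 33543 Peritrophin-15 UMIs of the esgts/D30A cells and 38712 of the 76468 of the esgts/+ cells. Without the shallow partners 79 cells remained in esgts/D30A and 196 in esgts/+. Without the shared barcodes in either library 73 cells remained in esgts/D30A and 189 in esgts/+.

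Peritrophin-15 cells were a smaller part of the esgts/D30A library. They were 1.98% (1.58 to 2.44%) of kept barcodes in esgts/D30A and 4.93% (4.29 to 5.64%) in esgts/+, a difference of -2.95 percentage points (-3.75 to -2.18, Newcombe interval). Without the shared barcodes the difference was -3.02 points. The rule sets 1 threshold from the pool of both libraries, and this direction depended on that choice: with the pooled share taken within each library (0.129% in esgts/D30A and 0.336% in esgts/+), the rule found 157 cells (3.65%) in esgts/D30A and 95 cells (2.32%) in esgts/+, a difference of 1.33 points (0.61 to 2.07).

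The smaller share in esgts/D30A was seen at each depth, which is shown by the plot of chosen cells by depth. Among barcodes with neither progenitor nor enteroendocrine counts, the cells made up 2.50% (1.69 to 3.55%) of esgts/D30A and 5.71% (4.67 to 6.91%) of esgts/+ barcodes with under 1000 UMIs. Among barcodes with 10000 UMIs or more they made up 3.20% (1.87 to 5.07%, 17 cells) in esgts/D30A and 10.0% (7.05 to 13.7%, 34 cells) in esgts/+. In the band of 2000 to under 10000 UMIs the intervals overlapped, with 2.73% (1.63 to 4.28%) in esgts/D30A and 4.31% (2.75 to 6.39%) in esgts/+. The widest gap was in the deepest band.

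**Figure D1:**
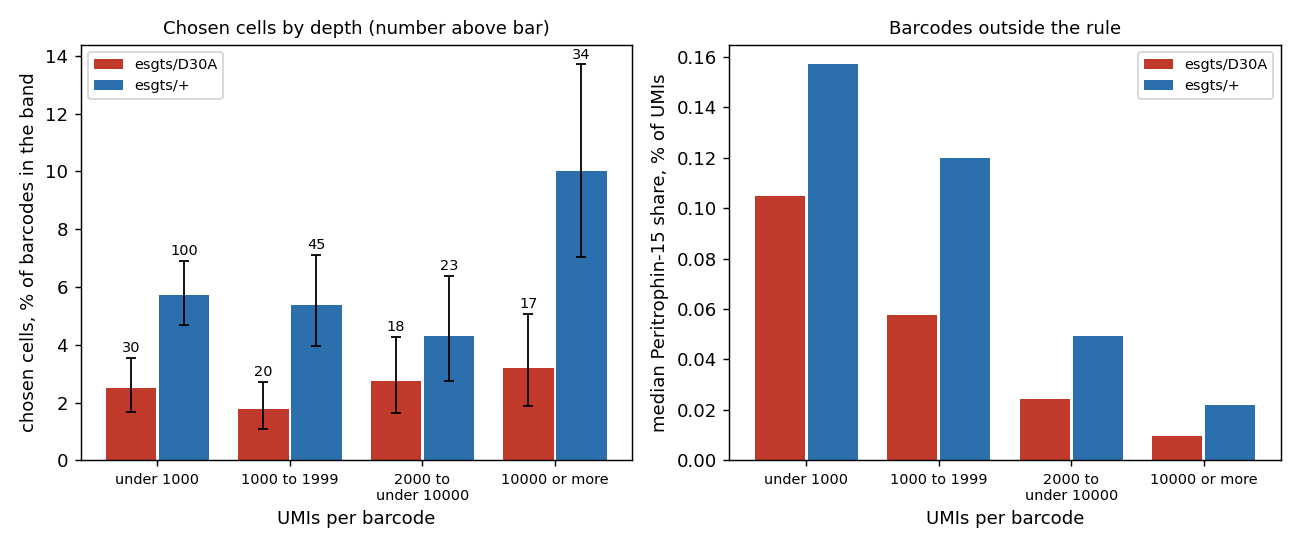
The left panel shows Peritrophin-15 cells as a percentage of barcodes in 4 bands of UMIs per barcode, with progenitor and enteroendocrine barcodes left out, as bars with exact Clopper-Pearson 95% intervals and the number of cells above each bar. The right panel shows the median Peritrophin-15 share of the barcodes outside the rule. The esgts/D30A bars are lower in every band of both panels, from 2.50% against 5.71% in the shallowest band to 3.20% against 10.0% in the deepest in the left panel.

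Peritrophin-15 UMIs were also spread thinly over most barcodes. At least 1 such UMI was found in 59.6% of progenitor barcodes in esgts/D30A (median 19074 UMIs) and in 78.4% of those in esgts/+ (median 11631 UMIs), cells that should lack the transcripts. Outside the rule, 59.0% of the barcodes that were neither progenitor nor enteroendocrine had a UMI in esgts/D30A (median 1285 UMIs) and 77.0% in esgts/+ (median 991 UMIs). A single UMI therefore did not mark a cell. In barcodes under 1000 UMIs outside the rule the median share was 0.105% in esgts/D30A and 0.157% in esgts/+, and this background moved with the genotype in the same direction as the number of cells. Its part in the number of shallow cells was not tested.

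Among the chosen cells, the Peritrophin-15 share, which the rule used, ran from 0.620% to 7.25% with a median of 1.34% in esgts/D30A and from 0.622% to 8.55% with a median of 0.982% in esgts/+. At the threshold the values were continuous, with 0.620, 0.623 and 0.630% just inside and 0.618, 0.613 and 0.611% just outside in esgts/D30A, and 0.622, 0.623 and 0.628% inside and 0.619, 0.616 and 0.614% outside in esgts/+. Within 1.25 times the threshold lay 13 cells inside and 26 barcodes outside in esgts/D30A, against 72 inside and 108 outside in esgts/+. The esgts/+ set thus held more cells close to the threshold.

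**Figure D2:**
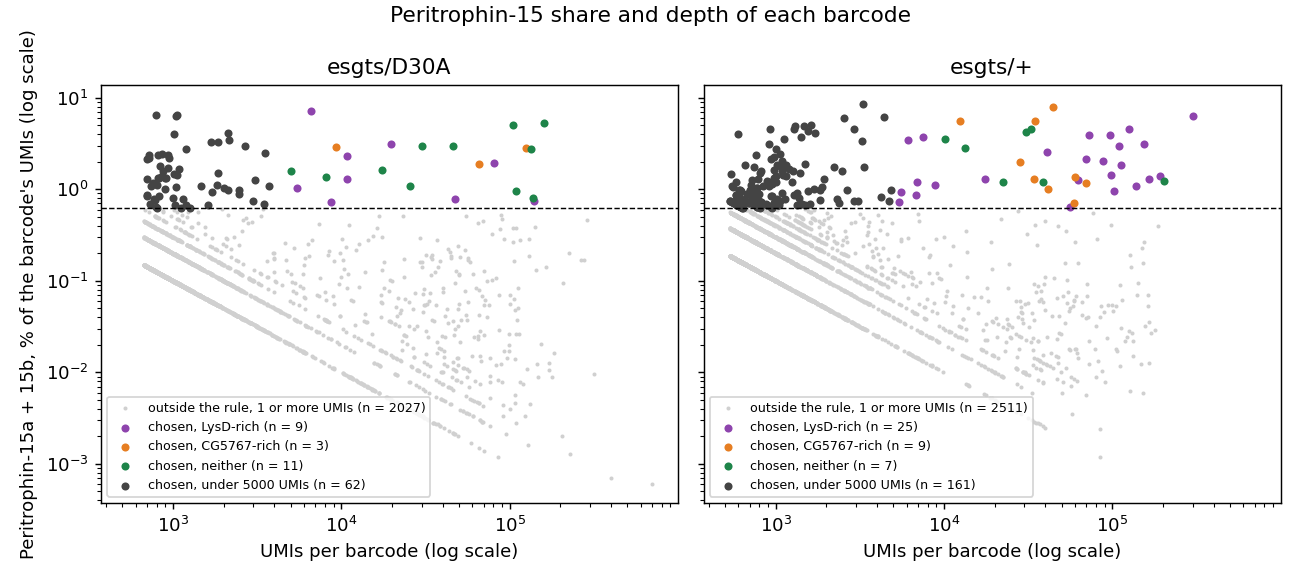
Each point is 1 barcode, with UMIs per barcode on the horizontal log axis and the percentage of its UMIs from Peritrophin-15a and Peritrophin-15b on the vertical log axis, and with esgts/D30A in the left panel and esgts/+ in the right panel. Coloured points are the chosen cells by the gene pattern described in the text, grey points are barcodes outside the rule with at least 1 UMI, and the dashed line is the 0.619% threshold. Shallow cells crowd above the line in esgts/+, and deep cells reach shares up to 5.24% (esgts/D30A) and 7.98% (esgts/+) at 10000 UMIs or more.

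Peritrophin-15 RNA was concentrated in few cells. The chosen cells held 51.0% of the 65819 Peritrophin-15 UMIs of kept barcodes in esgts/D30A and 75.1% of the 101856 in esgts/+. The 17 and 34 cells with at least 10000 UMIs supplied 92.6% of the cells' Peritrophin-15 UMIs in esgts/D30A and 94.8% in esgts/+, and the top cell alone held 8368 of 33543 in esgts/D30A and 19155 of 76468 in esgts/+. A further 4 barcodes in esgts/D30A and 2 in esgts/+ met the Peritrophin-15 limits but were set aside for progenitor or pros counts. They held 12101 Peritrophin-15 UMIs in esgts/D30A and 9619 in esgts/+, and the deepest of them had only 5 pros UMIs among 158045 UMIs in esgts/D30A and 12 UMIs of esg, N and Dl among 131194 in esgts/+. The mitochondrial limit set aside 14 more in esgts/D30A and 3 in esgts/+.

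Peritrophin-15a was by far the more abundant of the pair, which are neighbouring genes on chromosome arm 2L of the BDGP6.54 annotation. Peritrophin-15a was at 23344 UMIs per 1000000 UMIs (CPM), with an exact Poisson interval of 23091 to 23600, in the esgts/D30A cells and 25126 CPM (24946 to 25307) in the esgts/+ cells, and Peritrophin-15b at 768 CPM (723 to 816) in esgts/D30A and 644 CPM (616 to 674) in esgts/+. Peritrophin-15b was 1069 (3.19%) of the pair's UMIs in esgts/D30A cells and 1912 (2.50%) in esgts/+ cells, and 3.02% and 3.40% in the other kept barcodes of those libraries. In deep cells that balance varied, as given with the gene patterns below. Between genotypes the log2 ratio of esgts/D30A over esgts/+ was -0.11 (-0.12 to -0.09) for Peritrophin-15a and 0.25 (0.14 to 0.36) for Peritrophin-15b, and as a mean over cells the Peritrophin-15a ratio was 0.29, so no direction is read from it.

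Of the other cardia markers, pgant4, Peritrophin-A and drm were at or near 0 in the cells and Mur29B was not. pgant4, the glycosyltransferase that cardia cells use to glycosylate mucins, had 2 UMIs over the 85 esgts/D30A cells and 1 UMI over the 202 esgts/+ cells, or 1.44 CPM and 0.337 CPM, against 21.0 CPM in other esgts/D30A barcodes and 0.549 CPM in other esgts/+ barcodes. Peritrophin-A was at 0 UMIs in the cells of both libraries, which by a floor of 3 counts, not a 95% interval, allows up to 2.16 CPM in esgts/D30A and 1.01 CPM in esgts/+. drm, a zinc-finger factor of the foregut and cardia, was also at 0 UMIs in the cells of both libraries, with 28.3 CPM in other esgts/D30A barcodes and 9.27 CPM in other esgts/+ barcodes. For Peritrophin-A, and for pgant4 in esgts/+, the counts were too few to compare the cells with the barcodes around them. Mur29B, a mucin-related gene, was at 311 CPM in the esgts/D30A cells and 99.4 CPM in the esgts/+ cells, against 235 CPM and 273 CPM outside, and so lay on opposite sides of the other barcodes in the libraries.

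No further gene counted from the peritrophic matrix list was 2-fold or more higher in the cells in both libraries. Of its 14 genes with at least 20 UMIs over the cells and other kept barcodes of each library, 8 were 2-fold or more lower in the cells in both libraries, and the only 2 that were 2-fold or more higher in both were the Peritrophin-15 genes that chose the cells. Over all 7892 genes measured in this way, 0.912% were 2-fold or more higher in both libraries and 32.9% were 2-fold or more lower. The forkhead factor fkh was at 19.4 CPM in the esgts/D30A cells and 15.8 CPM in the esgts/+ cells, against 140.4 CPM and 149 CPM in the other barcodes of those libraries. The odd-skipped factor odd had 1 UMI in esgts/D30A cells and 14 in esgts/+ cells. CS-2, the chitin synthase of the gut, was at 66.1 CPM in the esgts/D30A cells and 32.0 CPM in the esgts/+ cells, with 67.1 CPM and 43.3 CPM outside them. Its log2 ratios of cells over other barcodes, -0.02 in esgts/D30A and -0.43 in esgts/+, were above the medians of all genes measured, -0.73 and -1.15. CS-2 was thus not low beside the typical gene.

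Chitinases were mostly low too. Cht8 was at 3.59 CPM in esgts/D30A and 1.01 CPM in esgts/+ cells, against 84.0 CPM and 44.7 CPM in other barcodes, and Cht9 at 22.3 CPM in esgts/D30A and 7.08 CPM in esgts/+ cells, against 247 CPM and 61.3 CPM. Cht4 reached 159 CPM in the esgts/D30A cells and 3.37 CPM in the esgts/+ cells, but 96.8% of the esgts/D30A UMIs came from 1 cell. Crys had 3 UMIs and Cda9 1 UMI in the esgts/D30A cells and 2 UMIs each in the esgts/+ cells, and Mur18B had 0 and 22. These are few counts for genes that build or modify the matrix.

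What the cells did carry was digestive enzyme RNA. The enterocyte markers alphaTry, betaTry, Jon65Aiv, Jon99Ciii, Amy-p, Mal-A1 and Npc1b together were at 118218 CPM in the esgts/D30A cells and 169134 CPM in the esgts/+ cells, against 32170 CPM and 52407 CPM outside them, and their summed level per cell ran from 5017 to 239849 CPM in esgts/D30A and from 10367 to 307936 CPM in esgts/+. Of the 7, 4 were higher in the cells than outside in each library. Npc1b, a sterol transporter of enterocytes, was not, with 5.75 CPM in esgts/D30A and 3.03 CPM in esgts/+ cells against 68.4 CPM and 34.6 CPM outside. The 3 copper cell markers (lab, Vha100-4 and Ptx1) were near the level outside. Together they were at 516 CPM in esgts/D30A and 437 CPM in esgts/+ cells, against 545 CPM and 461 CPM outside. The median log2 ratio of all genes measured, cells over other barcodes, was -0.73 in esgts/D30A and -1.15 in esgts/+. Markers of types from outside the gut epithelium were at or near 0. The visceral muscle genes had 1 UMI in esgts/D30A and 0 UMIs in esgts/+, and the hemocyte, fat body and tracheal markers had 0 UMIs in both. The 5 progenitor markers (esg, N, Dl, klu and mira) had 20 UMIs in esgts/D30A and 23 in esgts/+, and the 6 enteroendocrine markers (pros, Tk, NPF, AstA, AstC and Dh31) had 42 in esgts/D30A and 104 in esgts/+, each marker below its CPM outside the cells. The rule itself limited esg, N, Dl and pros, so low counts of these genes were fixed by the choice of cells. The barcodes set aside by those limits were also part of the outside level.

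The 20 genes that led the cells in both libraries were the Peritrophin-15 genes, digestive proteases, a sterol-binding protein gene and genes known by number only, as the plot of leading genes shows. The pair CG9682 and CG18404, adjacent on arm 3R, stood beside the Peritrophin-15 pair. CG18404 was at 29743 CPM in the esgts/D30A cells and 25301 CPM in the esgts/+ cells, against 444 CPM and 1104 CPM outside, and CG9682 at 2758 CPM in esgts/D30A and 3579 CPM in esgts/+ cells, against 58.0 CPM and 135 CPM. In all 12 of the 20 leading genes lay next to another leading gene in the annotation. Since the cells were chosen on their counts, these ratios describe the cells and are not tested.

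Serine proteases that cut dietary protein were the largest group of known role among the leaders. The Jonah proteases Jon65Aiv and Jon65Aiii were at 66565 and 39633 CPM in the esgts/D30A cells and at 91680 and 57295 CPM in the esgts/+ cells, against 9017 and 4296 CPM in other esgts/D30A barcodes and 13069 and 6027 CPM in other esgts/+ barcodes. The neighbouring protease yip7 was at 37131 CPM in the esgts/D30A cells and 29963 CPM in the esgts/+ cells, against 6776 CPM and 5288 CPM outside. The trypsin thetaTry was at 8690 CPM in esgts/D30A and 7296 CPM in esgts/+ cells, against 833 CPM and 422 CPM outside. deltaTry also led, at 1515 CPM in esgts/D30A and 1691 CPM in esgts/+ cells, but it has near-identical trypsin copies beside it and its counts are uncertain for that reason.

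Not every protease was high. Of 50 digestive genes measured in both libraries, 6 were 2-fold or more higher in the cells in both and 25 were 2-fold or more lower. Over all 7892 genes the shares were 0.912% higher and 32.9% lower. Jon25Bi was at 58.9 CPM in the esgts/D30A cells and 188 CPM in the esgts/+ cells, against 760.4 CPM and 3434 CPM outside, and Jon25Bii at 39.5 CPM in esgts/D30A and 101 CPM in esgts/+ cells, against 343 CPM and 1517 CPM. Jon65Aii was also lower in the cells, at 7.19 CPM in esgts/D30A and 10.8 CPM in esgts/+ against 82.7 CPM and 37.7 CPM outside, so the Jonah genes did not share 1 direction.

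The sterol-binding protein gene Npc2f was the leading gene with a role outside proteolysis and the matrix. It was at 3179 CPM in the esgts/D30A cells and 5330 CPM in the esgts/+ cells, against 214 CPM and 188 CPM outside. The remaining leaders were CG6403 and its neighbour CG14247, CG4563, CG9672, CG42807, the neighbours CG10910 and CG5773, CG4734, CG10477 (a protease next to yip7) and CG10912, with log2 ratios of 1.90 or more in each library. The ratios also stayed past 2-fold when each cell counted equally or was thinned to 600 UMIs: all 20 genes were at least 2-fold higher in both libraries under both, with the smallest log2 ratio 1.06 for CG10477 in esgts/+.

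**Figure D3:**
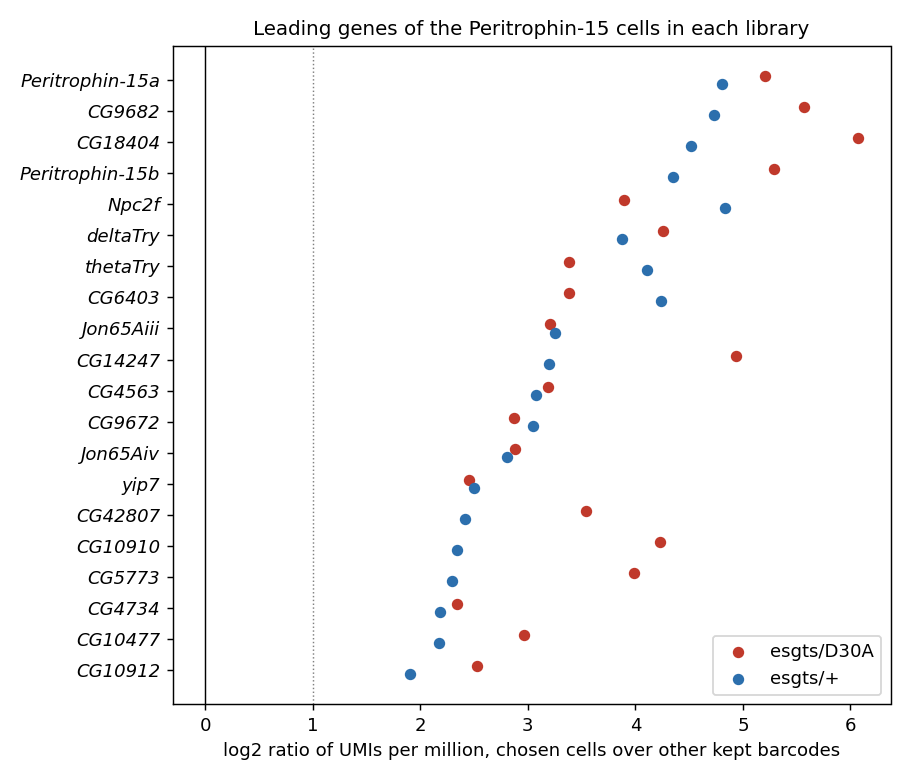
The 20 leading genes are listed down the page, and each point is the log2 ratio of summed CPM in Peritrophin-15 cells over the other kept barcodes of the same library, with esgts/D30A in red above esgts/+ in blue. The solid line marks no difference and the dotted line a 2-fold difference. CG18404 and CG9682 lie as far to the right as the Peritrophin-15 genes that chose the cells.

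The 64 cells with at least 5000 UMIs, 23 in esgts/D30A and 41 in esgts/+, were deep enough to be described 1 by 1. They were grouped, after their values had been seen and with no test, by whether LysD, a lysozyme that digests bacterial cell walls, or CG5767 held at least 1% of a cell's UMIs. No cell passed both limits. LysD lay within 2-fold of its limit in 4 cells and CG5767 in 7 cells, so the groups are ranges and not types.

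LysD-rich cells were the largest group in esgts/+. They were 9 of 23 deep cells in esgts/D30A (39.1%, 19.7 to 61.5%) and 25 of 41 in esgts/+ (61.0%, 44.5 to 75.8%). LysD ran from 15022 to 324598 CPM with a median of 76046 CPM in the esgts/D30A cells and from 12039 to 272652 CPM with a median of 179565 CPM in the esgts/+ cells. Every LysD-rich cell also had Npc2f, at 1922 to 18828 CPM (median 8922) in esgts/D30A and 1222 to 11769 CPM (median 6444) in esgts/+. The Jonah gene Jon65Aiv was at 33535 to 71140 CPM in esgts/D30A and 27670 to 154028 CPM in esgts/+, while Vha100-4 was found in 1 esgts/D30A and 2 esgts/+ cells. Peritrophin-15b was a small part of the pair there, with a median of 0.765% in esgts/D30A and 1.10% in esgts/+.

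CG5767-rich cells had more RNA of a proton pump subunit than the LysD-rich cells. They were 3 of 23 deep cells in esgts/D30A (13.0%, 2.78 to 33.6%) and 9 of 41 in esgts/+ (22.0%, 10.6 to 37.6%). CG5767 ran from 15831 to 130762 CPM in esgts/D30A and from 10144 to 196033 CPM in esgts/+. Vha100-4, the gene of that proton pump (V-ATPase) subunit and a marker listed for copper cells, was at 638 to 3222 CPM in esgts/D30A and 725 to 4374 CPM in esgts/+. The other listed copper cell markers, lab and Ptx1, were each found in 1 of the 3 esgts/D30A cells. Outside the rule, lab was found in 101 and Ptx1 in 95 of 109 CG5767-rich esgts/D30A barcodes. Among all 41 deep esgts/+ cells lab was found in 9 and Ptx1 in 23. CG18404 was high in each CG5767-rich cell, at 14012 to 47835 CPM in esgts/D30A and 12542 to 96150 CPM in esgts/+. LysD did not pass 2139 CPM in esgts/D30A or 4119 CPM in esgts/+, and Npc2f did not pass 32.0 CPM or 883 CPM.

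The remaining deep cells, 11 of 23 in esgts/D30A (47.8%, 26.8 to 69.4%) and 7 of 41 in esgts/+ (17.1%, 7.15 to 32.1%), were mixed. Jon65Aiv ran from 532 to 130186 CPM with a median of 74910 CPM in the esgts/D30A cells and from 2458 to 202408 CPM with a median of 123706 CPM in the esgts/+ cells, and LysD had medians of 386 CPM and 364 CPM. The protease gene CG10477 had a median of 6575 CPM in these esgts/D30A cells and 197 CPM in the esgts/+ cells, and ran up to 22705 CPM in esgts/D30A and 15055 CPM in esgts/+. Mur29B was found in 10 of the 11 esgts/D30A cells and 6 of the 7 esgts/+ cells, with medians of 323 CPM and 449 CPM, against 1 of 9 LysD-rich cells in esgts/D30A and 8 of 25 in esgts/+. It was also found in all 3 CG5767-rich esgts/D30A cells, at 104 to 1306 CPM. Outside the rule, 252 of 426 deep esgts/D30A barcodes with neither pattern had it.

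A few of these cells had low Jon65Aiv for the chosen cells, though with alphaTry at 5212 CPM or more in each. In esgts/D30A a cell of 30096 UMIs had a Peritrophin-15 share of 2.94%, 3289 CPM Peritrophin-15b, 7111 CPM Cht4, 532 CPM Jon65Aiv and no CG18404, and a cell of 8145 UMIs had 1964 CPM Peritrophin-15b and 5157 CPM Jon65Aiv. In esgts/+ cells of 10169 and 13350 UMIs had 5900 and 5918 CPM Peritrophin-15b with 2458 and 3596 CPM Jon65Aiv. None of these 4 cells shared its barcode with the other library, and Peritrophin-15b was up to 14.4% of the pair's UMIs among such cells in esgts/D30A and 20.7% in esgts/+. They were picked out after their values had been seen.

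**Figure D4:**
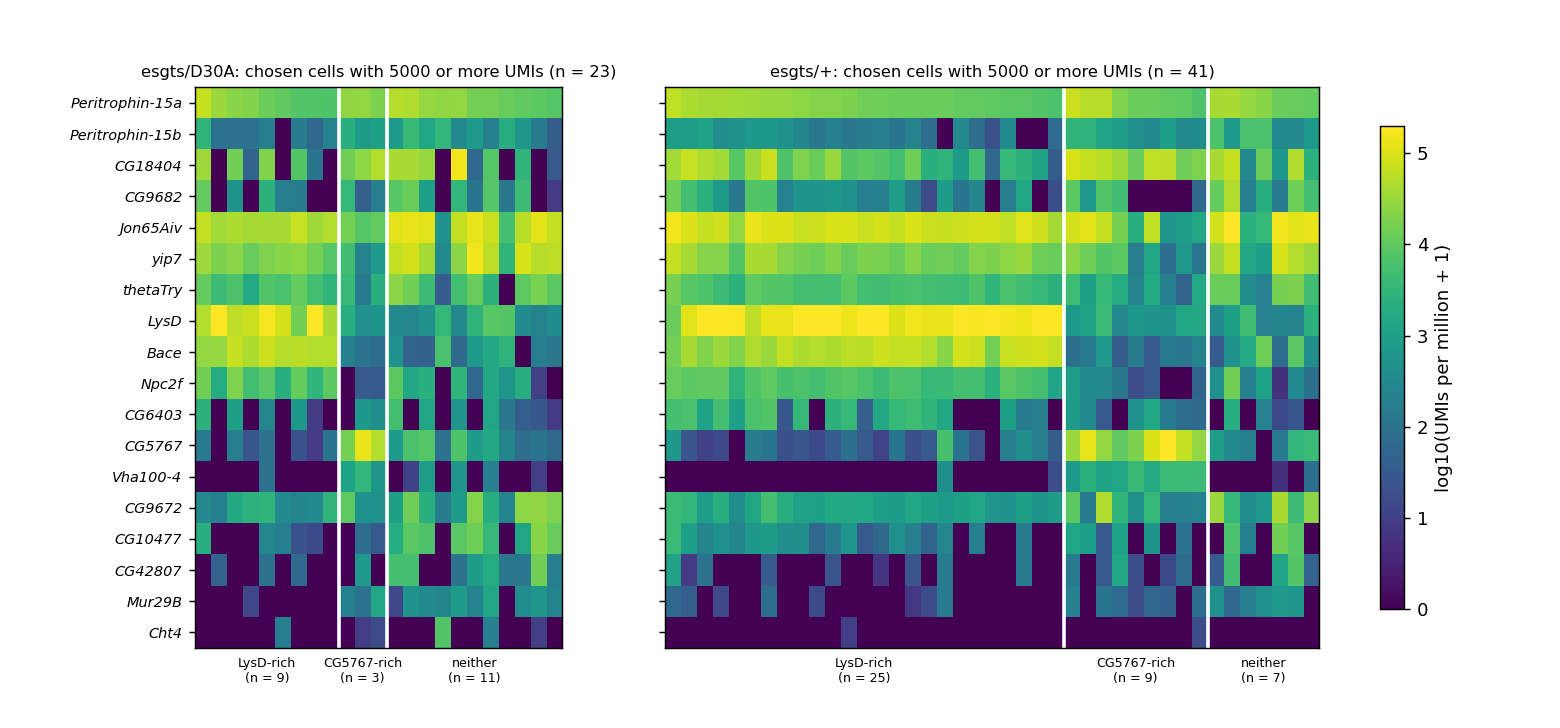
Each column is 1 Peritrophin-15 cell with 5000 or more UMIs and each row 1 gene, with the colour giving log10 of CPM plus 1, for 23 esgts/D30A cells in the left panel and 41 esgts/+ cells in the right panel. White lines separate LysD-rich, CG5767-rich and remaining cells, each ordered by Peritrophin-15 share. LysD, Bace and Npc2f are high together in the first block, and CG5767 and Vha100-4 in the second. Jon65Aiv is high in the first block and in much of the third, and CG10477 in much of the third block of esgts/D30A.

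Within each pattern the cells could be set beside barcodes of the same pattern, also with at least 5000 UMIs, that failed only the Peritrophin-15 limits. Depth was not matched beyond that minimum. Among LysD-rich barcodes, the cells had median Npc2f of 8922 CPM in esgts/D30A and 6444 CPM in esgts/+, while the 146 others in esgts/D30A and 129 others in esgts/+ had medians of 11.1 CPM and 7.52 CPM. Jon65Aiv had medians of 40335 CPM in esgts/D30A and 84095 CPM in esgts/+ cells, against 19056 CPM and 28173 CPM in the others, and LysD itself was not higher in the cells, at 76046 CPM and 179565 CPM against 136827 CPM and 185196 CPM. Among CG5767-rich barcodes, the cells had median CG18404 of 24907 CPM in esgts/D30A and 57180 CPM in esgts/+, against 36.2 CPM and 142 CPM in 109 and 60 others. Jon65Aiv had medians of 10648 CPM and 16555 CPM there, against 271 CPM and 486 CPM, while Vha100-4 was lower in the cells, at 1177 CPM and 2419 CPM against 4441 CPM and 4132 CPM.

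The share of each pattern that met the rule was numerically lower in esgts/D30A for all 3 patterns. It was 5.81% (2.69 to 10.7%) of LysD-rich barcodes in esgts/D30A and 16.2% (10.8 to 23.0%) in esgts/+, and 2.68% (0.556 to 7.63%) of CG5767-rich barcodes in esgts/D30A and 13.0% (6.14 to 23.3%) in esgts/+. For the remaining barcodes it was 2.52% (1.26 to 4.46%) in esgts/D30A and 2.72% (1.10 to 5.53%) in esgts/+. The separate intervals overlapped there and for the CG5767-rich barcodes, and for LysD-rich barcodes they parted only at 10.7% against 10.8%. Overlap of separate intervals does not decide whether shares differed, and no interval of the difference is given for the patterns. The shares used the threshold pooled over both libraries, and the direction for all cells reversed with the pooled share within each library.

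Outside the rule, 62 barcodes in esgts/D30A and 3 in esgts/+ had at least 2 pgant4 UMIs at 3 times its pooled share. Their low Peritrophin-15a, 60 UMIs over the 62 esgts/D30A barcodes, follows in part from lying outside the rule. CG18404 was at 27.5 CPM and Jon65Aiv at 378 CPM in these esgts/D30A barcodes, against 29743 CPM and 66565 CPM in the Peritrophin-15 cells, and Cht4 at 470.4 CPM against 159 CPM. The 3 esgts/+ barcodes had 4 Peritrophin-15a UMIs, too few for a level to be read.

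The 62 shallow cells of esgts/D30A and 161 of esgts/+, those under 5000 UMIs, carried Jon65Aiv, CG18404 and Npc2f above the other shallow barcodes. The leading gene CG10477 was close to them in esgts/D30A, at a summed 515 CPM in the shallow cells against 472 CPM outside the rule, and at 1267 CPM against 776 CPM in esgts/+. Jon65Aiv had medians of 47667 CPM in esgts/D30A and 39706 CPM in esgts/+, against 9722 CPM and 21925 CPM in shallow barcodes outside the rule. CG18404 had medians of 4117 CPM in esgts/D30A and 7030 CPM in esgts/+, against 0 and 2841 CPM, and Npc2f medians of 2516 CPM and 1092 CPM, against 0 in both. LysD was near the surrounding level, at 38146 CPM in esgts/D30A and 43896 CPM in esgts/+ against 25564 CPM and 37850 CPM, so the LysD-rich pattern cannot be read in shallow cells.

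Between genotypes the CPM of most genes, taken from summed counts, was higher in the esgts/D30A cells. Of 2695 genes with at least 50 UMIs over the cells, 564 (20.9% of those tested) were 2-fold or more higher in esgts/D30A and 44 (1.63%) were 2-fold or more lower, and the median log2 ratio was 0.49, against 0.08 for the same genes in the other kept barcodes. Relative to that median gene, 204 (7.57%) were 2-fold or more higher and 125 (4.64%) lower. Leaving out the shared barcodes gave 281 higher and 48 lower of 1941 genes, and for 300 of the 564 and 18 of the 44, a single cell held over 20% of the gene's UMIs in the library where it was higher. With each cell counted equally 420 genes were higher and 352 lower. These counts describe the cells of a pair of libraries and not the genotypes.

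The 10 genes highest in the esgts/D30A cells, among those without such a dominant cell, were each more abundant outside the cells in both libraries by summed counts. CG34324 was at 267 CPM in the esgts/D30A cells and 7.08 CPM in the esgts/+ cells, a log2 ratio of 5.24 (4.60 to 5.95), but at 6480 CPM and 94.7 CPM in the other barcodes. CG14645 was at 838 CPM in esgts/D30A and 39.4 CPM in esgts/+ cells (log2 ratio 4.41), and at 15900 CPM and 371 CPM in the others. CG3906 and CG34220 had log2 ratios of 4.11 and 4.06 in the cells and 5.17 and 5.13 in the others. For these 4 genes the summed level in the cells was below that outside in each library, with CG14645 seen in 92.9% of esgts/D30A cells and 39.1% of esgts/+ cells. For CG14645 in esgts/D30A this varied with depth. Under 5000 UMIs its median was 12829 CPM in the cells and 13828 CPM in other kept barcodes, while the deep cells were at a summed 256 CPM. Outside the rule the 62 pgant4 barcodes of esgts/D30A held 642586 CG14645 UMIs, at 320898 CPM.

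Mitochondrial transcripts made up 5 of the 10. The ribosomal RNA mt:lrRNA was at 3944 CPM in the esgts/D30A cells and 400.0 CPM in the esgts/+ cells (log2 ratio 3.30, 3.21 to 3.39), and mt:ND4, mt:ATPase6, mt:Cyt-b and mt:ND1 had log2 ratios of 3.18, 2.63, 2.62 and 2.60. In the other barcodes the log2 ratios were 2.97, 2.80, 2.19, 1.95 and 2.10. The median mitochondrial share was 3.62% in esgts/D30A cells and 1.69% in esgts/+ cells, and 3.69% and 1.38% in the other kept barcodes, so the cells did not stand apart from their library in this. Mlc-c, a myosin light chain, completed the 10 with a log2 ratio of 2.65 in the cells and 1.47 in the others.

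Among the genes lowest in esgts/D30A were LysD and Bace, an aspartic protease of the gut. LysD was at 40857 CPM in the esgts/D30A cells and 111966 CPM in the esgts/+ cells, a log2 ratio of -1.45 (-1.47 to -1.44), and Bace at 13092 CPM and 33675 CPM, a log2 ratio of -1.36 (-1.39 to -1.34). In the other barcodes the ratios were -1.11 and -0.71. LysD-rich cells, which are defined by LysD, were 39.1% of deep esgts/D30A cells and 61.0% of deep esgts/+ cells, and the part of this mix in the ratios was not tested. Among LysD-rich cells alone the LysD median was still lower in esgts/D30A, at 76046 CPM against 179565 CPM in esgts/+, while the ratio of sums was 0.03, with 68.0% of the esgts/D30A sum in 1 cell. The Bace ratio of sums there was 0.08. A single cell held 63.3% of the LysD UMIs of the 85 chosen esgts/D30A cells. LysD has near-identical neighbours (LysB, LysC and LysE) among which reads may have been split.

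The other genes lowest in esgts/D30A were Cyp309a1, a cytochrome P450, at -1.69, Jon25Bi at -1.67, Jon25Bii at -1.35, CG31198 at -1.33, Eglp2 (an aquaglyceroporin) at -1.25, CG12374 at -1.18, CG10116 at -1.13 and the trypsin epsilonTry at -1.12, all as log2 ratios in the cells. Jon25Bi and Jon25Bii had ratios of -2.17 and -2.14 in the other barcodes, where they were also more abundant. Among LysD-rich cells alone, CG31198, Eglp2 and epsilonTry had ratios of 0.09, 0.06 and 0.24. With the pooled share taken within each library CG12374 had a ratio of 1.15.

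Of the 20 leading genes 6 differed by 2-fold or more between genotypes, where 20.9% of all genes tested were higher and 1.63% lower. The log2 ratios were -1.31 for CG6403, 1.20 for CG14247, 1.25 for CG10910, 1.41 for CG10477, 1.57 for CG5773 and 2.56 for CG42807. As means over cells they were, in that order, -0.05, 1.02, -0.40, 0.17, 0.34 and 0.61. In the esgts/D30A cells 1 cell held 64.2% of the CG14247 UMIs, and 1 cell held 67.0% of the CG5773 UMIs. Among leading genes under 2-fold the log2 ratio was -0.46 for Jon65Aiv, -0.53 for Jon65Aiii, -0.75 for Npc2f, -0.38 for CG9682 and 0.23 for CG18404. As means over cells these were, in that order, -0.06, 0.02, 0.55, -0.05 and -0.05. A single cell held 51.1% of the CG18404 UMIs of deep esgts/D30A cells. Among LysD-rich cells alone the ratio was -3.07 for CG18404 and -3.20 for CG9682. CG42807 had the widest gap, at 2329 CPM in the esgts/D30A cells and 394 CPM in the esgts/+ cells (log2 ratio 2.56), but it was at -1.65 without the shared barcodes. The 3 deep esgts/D30A cells with most of it, at 5255 to 14809 CPM, all had barcodes that both libraries held.

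**Figure D5:**
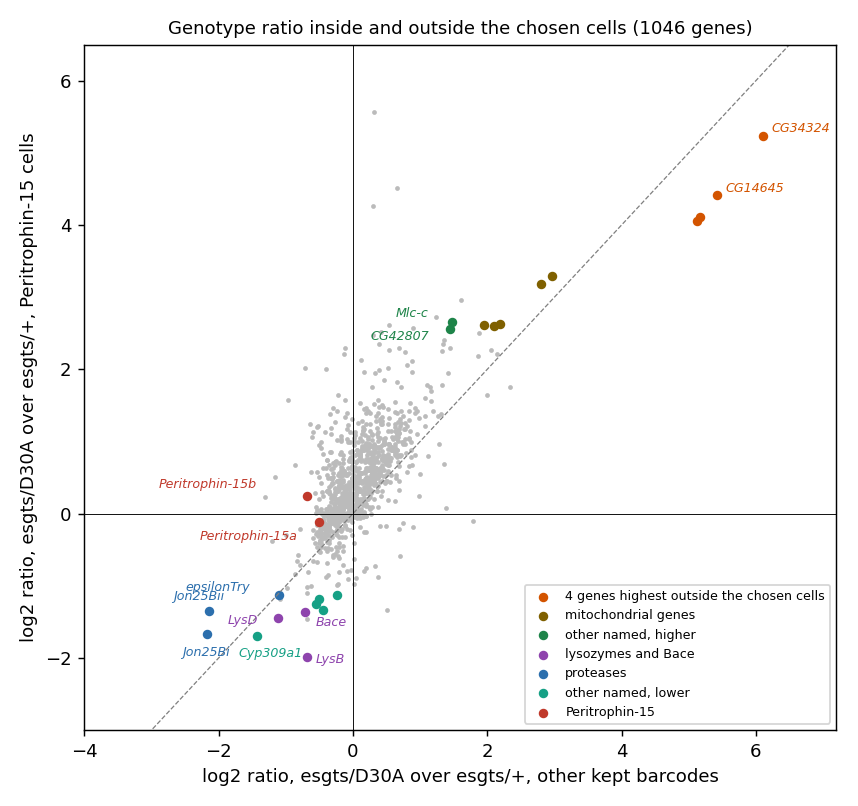
Each point is 1 of 1046 genes with at least 200 UMIs over the Peritrophin-15 cells, with the log2 ratio of esgts/D30A over esgts/+ in the other kept barcodes on the horizontal axis and in the Peritrophin-15 cells on the vertical axis. The dashed line marks equal ratios, and colours mark genes named in the text. The 4 genes furthest to the right, CG34324, CG14645, CG3906 and CG34220, lie below the line, and LysB, at -1.99 in the cells, lies lowest.

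By gene list the digestive and lysozyme genes lay below the median gene in the esgts/D30A cells and most other lists above it. Relative to the median gene, where 7.57% of all genes were 2-fold or more higher and 4.64% lower, 17 of 37 digestive genes were 2-fold or more lower and 3 higher, with a list median of -0.96 log2 in the cells and -0.33 in the other barcodes. Of 7 lysozyme genes 5 were lower and 0 higher, with medians of -1.95 and -0.77. The lysozyme sum was 5.25% of UMIs in the esgts/D30A cells and 14.3% in the esgts/+ cells, and 3.15% and 6.17% outside them. Among LysD-rich cells alone the digestive median was 0.39, and with each cell counted equally the lysozyme median was -0.06, so the digestive value changed sign with the cells taken and the lysozyme value shrank with the weight given to each cell.

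Few genes of the matrix and of secretion had counts enough to compare. Over all genes tested 7.57% were 2-fold or more higher relative to the median gene and 4.64% lower. Of 8 peritrophic matrix genes 4 were 2-fold or more higher relative to the median gene and 0 lower, with a list median of 0.85 in the cells and 0.03 outside, and -1.53 among LysD-rich cells alone. All 4 mucin genes counted were 2-fold or more higher, with summed mucin levels of 471 CPM in the esgts/D30A cells and 138 CPM in the esgts/+ cells and 1294 CPM and 354 CPM outside. The best counted of them was Mur29B, at 311 CPM in esgts/D30A and 99.4 CPM in esgts/+ (log2 ratio 1.65, and -0.06 as a mean over cells). Of 37 genes of the secretory pathway, which folds and exports proteins, 1 was higher and 0 lower, with a median of 0.06. Of 13 brush border and cytoskeleton genes 5 were higher, of 10 heat shock genes 3, of 6 chitin genes 3, of 8 septate junction genes 0, of 6 regional transcription factors 1, of 3 copper cell genes 0 and of 2 GalNAc transferases 0, and none of these lists had a gene 2-fold or more lower.

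Immune genes of the IMD pathway were measured because the transgene blocks that pathway in progenitors. Of 10 IMD transduction genes 2 were 2-fold or more higher relative to the median gene and 0 lower, with a median of 0.02, and of 5 peptidoglycan recognition proteins (PGRP) 0 were higher and 0 lower, with a median of -0.17. Over all genes tested 7.57% were higher and 4.64% lower, and lists this short cannot be told apart from those shares. The negative regulator PGRP-LB, which degrades peptidoglycan, was at 323 CPM in the esgts/D30A cells and 337 CPM in the esgts/+ cells, against 181 CPM and 184 CPM outside. The inhibitor pirk was at 216 CPM in esgts/D30A and 73.8 CPM in esgts/+ cells, against 253 CPM and 164 CPM outside, and 31.3% of its UMIs in the esgts/D30A cells came from 1 cell. AttD was the only antimicrobial peptide with 50 UMIs, at 51 UMIs in esgts/D30A and 46 in esgts/+ cells, and 84.3% and 69.6% of them came from 1 cell in each library.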

How the data were processed

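The authors deposited whole-number UMI counts, 1 matrix a library, made with Cell Ranger 3.0 (3.0.2 in the matrix headers). Seurat 3.1.1 is also named in the submitters' processing notes. The genome build of the counts is not given in the sources used here, and gene order was taken from BDGP6.54 (Ensembl) by FlyBase identifier. Gene lists were matched by symbol or identifier. The members, gene lists and patterns were chosen with earlier results of these data known.

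Counts were summed over the cells of each library, divided by the summed UMIs and given as CPM, so deep cells weigh most. Poisson, Clopper-Pearson, Newcombe and exact conditional binomial intervals (95%) were computed in Python 3.11.15 with scipy 1.17.1. Medians took 3 counts in place of 0. Genotype ratios used genes with at least 50 UMIs over the cells. Single libraries allowed no test. The ratio script was tested on simulated counts.

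Named genes were Peritrophin-15a, Peritrophin-15b and the peritrophic matrix list, the 20 genes with the highest smaller log2 ratio of cells over other kept barcodes (at least 100 UMIs in the cells of each library), the 10 highest and 10 lowest genotype ratios (at least 200 UMIs, no cell with over 20% of the UMIs in the library where the gene was higher), up to 4 genes with most UMIs per list, and cell type markers. CG5767 and the LysD and CG5767 limits of the deep cells were chosen after their values were seen.

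The libraries held 53275921 UMIs in esgts/D30A and 30383272 in esgts/+, and for the equal-depth check barcodes were thinned to 600 UMIs. Doublets were not removed, since Scrublet (scanpy 1.11.5) marked 1 barcode in esgts/D30A and 0 in esgts/+ by its own threshold. As an alternative the highest scores were removed. Other alternatives changed the cell limits, the Peritrophin-15 limits, depth, weighting, scaling, count minimums and shared barcodes, the last, the depth limits and the LysD-rich subset being chosen after seeing the data.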

Additional observations from a re-analysis of the deposited data

How the results depend on the processing

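Most limits of these cells lie in the rule and in a few deep cells. No paired analysis was possible because each genotype is 1 library, and no replicate could be left out. The cells numbered 31 in esgts/D30A and 65 in esgts/+ at a gene minimum of 500 and a mitochondrial limit of 10%, 66 and 112 (difference -1.20 points) with at least 10 Peritrophin-15 UMIs, 28 and 38 (-0.28 points, -0.67 to 0.11) at 10 times the pooled share, and 157 and 95 (1.33 points, the opposite direction) with the pooled share within each library. For thinning to 600 UMIs, 412 kept esgts/+ barcodes below that depth were left out, 27 of them Peritrophin-15 cells, and 0 in esgts/D30A. The pooled share was recomputed at 0.144%, which lowered the threshold. The cells then numbered 173 and 411 (-7.13 points). By alternatives chosen after seeing the data they numbered 141 and 455 (-8.09 points) without shared barcodes and with the pooled share recomputed, 23 and 41 at 5000 UMIs or more, and 17 and 34 at 10000 UMIs or more. The cause of these shifts was not tested.

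Against the main 564 higher and 44 lower genes, there were 204 and 125 with median-of-ratios scaling, 1018 and 84 at a minimum of 20 UMIs, 189 and 18 at 200 UMIs, 288 and 132 without shared barcodes and with the pooled share recomputed, and 206 and 72 among LysD-rich cells. Without shared barcodes 281 were higher, without the deepest 5% of cells 165 were higher, as a mean over cells 420 were higher and 352 lower, and with the pooled share within each library 18 were lower. Lists above the median gene numbered 14 of 17, against 9 of 17 without shared barcodes (pooled share recomputed), 9 of 15 without the deepest 5% and 6 of 11 among LysD-rich cells. Genes 2-fold or more lower in the cells than outside numbered 1585 as a mean over cells, 151 after thinning and 495 at a minimum of 20 UMIs in the cells, against 2597.

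The log2 ratio changed sign for CG12374 with the pooled share within each library (1.15), for Bace without shared barcodes (0.01, and 0.04 with the pooled share recomputed), as a mean over cells (0.06), without the deepest 5% (0.43) and among LysD-rich cells (0.08), and for CG42807 without shared barcodes (-1.65 and -1.23), without the deepest 5% (-1.58) and among LysD-rich cells (-3.58). It also did so for Eglp2 (0.06 without shared barcodes and with the pooled share recomputed, and 0.06 among LysD-rich cells), Mur29B as a mean over cells (-0.06), epsilonTry (0.58 without the deepest 5% and 0.24 among LysD-rich cells), CG31198 (0.09) and LysD (0.03) among LysD-rich cells. CG10910, at 1.25 in the main results, was at -0.40 as a mean over cells. The LysD-rich cells are defined by LysD. A single cell held 68.0% of the LysD UMIs of the LysD-rich esgts/D30A cells. The LysD medians of the LysD-rich cells kept the main direction (76046 CPM in esgts/D30A and 179565 CPM in esgts/+).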
